A study of Mus musculus with 9 samples.

Results

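Eci1, Eci2 and Eci3 encode the enoyl-CoA isomerases, enzymes of the breakdown of unsaturated fatty acids, and their transcripts were followed in mouse brown adipose tissue (BAT) and in primary brown adipocytes. The 3 genes were taken by symbol from 29386 gene identifiers, and they were chosen by the BAT comparison itself, in which Eci2 was already known to be far higher in Setdb1 AKO mice. Their BAT values are therefore a description and carry no test. Setdb1 encodes a histone methyltransferase that marks silenced chromatin. In BAT, 2 libraries of Setdb1 AKO mice (Setdb1 fl/fl; Adipoq-Cre+) were set against 2 libraries of control mice (Setdb1 fl/fl; Adipoq-Cre-). The floxed Setdb1 alleles are thus shared by both BAT groups, and Adipoq-Cre acts in adipocytes rather than in every cell of the tissue. Primary brown adipocytes that were Setdb1 flox/flox and carried Rosa26Cre-ERT2, a Cre switched on by tamoxifen, gave 1 library after 1 μM 4-hydroxytamoxifen (4-OHT) and 1 after its ethanol vehicle (ETOH). In a separate set of primary brown adipocytes, 2 libraries received siRNA against Setdb1 (siSetdb1) and 1 a control siRNA (siNC). Whether both siSetdb1 libraries received the same siRNA or different ones is not given by the labels. They were fitted as replicates of 1 group, so the siRNA intervals and p-values rest on that assumption. Mice with Adipoq-Cre and intact Setdb1, or cells given 4-OHT without the floxed alleles, were not among the groups, so Cre or 4-OHT and the loss of Setdb1 cannot be told apart. The labels give neither the age nor the sex of the mice, and they leave the prefix TN_CE of the BAT libraries unexplained. They also do not say that replicates came from separate mice or cultures, so the spread between libraries may be technical.

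Double bonds of natural fatty acids often end up, during beta-oxidation, at a place that the enoyl-CoA hydratase of the pathway cannot use. Enoyl-CoA isomerases shift such a bond by one carbon and turn it into the form that the hydratase accepts, so that oxidation goes on. Eci1 is the classical isomerase of the mitochondrial matrix. Eci2 joins an acyl-CoA-binding domain to the isomerase fold and is found in mitochondria and in peroxisomes. Eci3, a close relative of Eci2 in the mouse, is a peroxisomal isomerase known mainly from kidney. Brown fat oxidises fatty acids to make heat and is rich in both organelles.

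Eci2 (ENSMUSG00000021417) lies on GRCm38 chromosome 13, 34977748 to 35027096, on the minus strand. Eci3 (ENSMUSG00000021416) lies beside it on the same strand, at 34946614 to 34963810. Eci1 (ENSMUSG00000024132) is on chromosome 17, 24426683 to 24439316, on the plus strand. In the GENCODE M21 transcripts Eci2-201 and Eci3-201, 845 of 944 aligned coding bases were identical (89.5%). Eci1-201 shared no run longer than 9 bases with either coding sequence. Because part of a read can come from a coding stretch that Eci2 and Eci3 share, the longest such stretch is printed first. It is in lower case throughout since no base differs. It spans 121 bases, coding bases 221 to 341 of Eci2 and 92 to 212 of Eci3, and is shorter than a full read of 150 bases.

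Eci2 and Eci3, shared coding stretch: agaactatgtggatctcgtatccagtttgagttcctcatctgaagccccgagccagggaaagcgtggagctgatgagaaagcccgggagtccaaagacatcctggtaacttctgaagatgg

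The stretch in which the paralogs differ most is printed next, since reads from it can be assigned. It holds 90 coding bases, 969 to 1058 of Eci2 and 840 to 929 of Eci3, with 59 identical bases and 31 mismatches in capitals.

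Eci2 coding window: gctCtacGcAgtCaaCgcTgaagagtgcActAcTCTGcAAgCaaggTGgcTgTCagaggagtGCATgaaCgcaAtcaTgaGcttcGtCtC
Eci3 coding window: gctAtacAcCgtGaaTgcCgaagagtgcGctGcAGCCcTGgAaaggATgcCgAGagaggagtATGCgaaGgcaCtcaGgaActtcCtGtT

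Of the 1716 31-mers (31-base words) of Eci2-201, 209 also occur in Eci3 (12.2%) and 161 in Gm16984 (9.38%), an annotated antisense RNA. Of the 1317 31-mers of Eci3-201, 206 also occur in Eci2 (15.6%) and 109 in Gm16984 (8.28%). Another 7.14% figure (94 words, not exclusive of the others) belongs to a gene that overlaps Eci3 on the plus strand. In any other gene, on either strand, occur 261 of the Eci2-201 words (15.2%) and 300 of the Eci3-201 words (22.8%). How the authors treated reads that map to several genes, and whether strand was used, is not given in the sources used here. Part of the Eci2 and Eci3 reads may therefore not be assigned with certainty. The reads, paired and of 150 bases, are longer than these words, so the shares of words are not shares of reads.

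The promoter windows are printed because Eci2 differed so strongly between the BAT groups while its relatives did not. Each holds 250 bases before to 50 bases after the start of transcription in RefSeq (GRCm38.p6), read along the gene, with every CpG in capitals. The Eci2 window, chr13:34994095-34994394 on the minus strand, lies inside the longer gene that GENCODE annotates. The Eci3 window is chr13:34963760-34964059 on the minus strand, and the Eci1 window is chr17:24426433-24426732 on the plus strand.

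Eci2 promoter window: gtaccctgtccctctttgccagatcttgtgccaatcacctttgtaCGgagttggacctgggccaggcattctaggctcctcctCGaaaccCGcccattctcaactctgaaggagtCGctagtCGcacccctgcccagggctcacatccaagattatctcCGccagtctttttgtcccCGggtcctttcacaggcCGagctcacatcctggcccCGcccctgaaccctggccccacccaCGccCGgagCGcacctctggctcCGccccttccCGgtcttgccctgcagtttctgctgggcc
Eci3 promoter window: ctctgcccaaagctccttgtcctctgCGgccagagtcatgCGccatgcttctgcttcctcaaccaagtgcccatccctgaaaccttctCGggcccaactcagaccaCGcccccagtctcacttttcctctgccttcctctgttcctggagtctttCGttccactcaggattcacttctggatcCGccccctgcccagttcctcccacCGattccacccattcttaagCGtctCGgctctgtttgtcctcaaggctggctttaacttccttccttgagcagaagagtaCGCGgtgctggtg
Eci1 promoter window: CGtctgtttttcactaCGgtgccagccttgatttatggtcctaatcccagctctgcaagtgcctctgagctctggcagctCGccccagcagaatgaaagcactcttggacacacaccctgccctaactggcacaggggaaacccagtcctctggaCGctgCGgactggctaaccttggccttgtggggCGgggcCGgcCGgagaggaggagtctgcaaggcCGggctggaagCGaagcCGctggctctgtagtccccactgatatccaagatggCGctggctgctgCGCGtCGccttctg

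The Eci2 window holds 14 CpG, the Eci3 window 11 and the Eci1 window 15. Of 32851 promoter windows of the same length, 36.3% hold at least as many CpG as Eci2, 41.4% as Eci3 and 34.6% as Eci1. The GC box GGGCGG occurs 3 times in the Eci2 window and 1 time each in those of Eci3 and Eci1, counting both strands, and 35.7% of all windows hold it. The motif CCAAT occurs 1 time, in the Eci2 window, against 37.4% of all windows with a match on either strand. The motif AGGTCA of nuclear receptors (16.3% of windows) and its direct repeat, 2 copies spaced by 1 base (0.0396%), had no match in these 3 windows, searched on both strands. A match is a description of letters and not a bound site.

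Reads on genes numbered between 15979479 and 16940622 in the BAT libraries, 30176359 in 4-OHT and 29911734 in ETOH cells, and between 17593799 and 18468152 in the siRNA libraries. Setdb1 read 156.4 and 190.9 normalised counts in Setdb1 AKO BAT, against 455.0 and 472.8 in control BAT, where a normalised count is the read count scaled by the authors to make libraries comparable. It read 631.5 normalised counts in 4-OHT cells against 1050.5 in ETOH cells, and 370.9 and 399.2 normalised counts in siSetdb1 cells against 783.5 in siNC cells. These are 37.4%, 60.1% and 49.1% of the control level, summed over the whole gene and not over the floxed part alone. All 9 markers of brown adipocytes, Ucp1, Cidea and Adipoq among them, had reads in every group. Their summed level was 16017 to 21743 CPM (reads on a gene scaled to a common total of reads on genes) in Setdb1 AKO BAT, against 18946 to 20796 in control BAT. It was 8036 CPM in 4-OHT cells against 6600 in ETOH cells, and 12940 to 13056 CPM in siSetdb1 cells against 12917 in siNC cells. Fabp4 was the largest part of the sum in each library, so the sum can hide single markers. Dio2, named after its values were seen, had 735 and 390 CPM in Setdb1 AKO BAT, against 1183 and 1229 in control BAT. It was not called (limma, adjusted p below 0.05), and the median log2 difference of the 9 markers in BAT was -0.03.

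Eci2 stood out among the isomerases in BAT. It had 32560 and 31106 normalised counts in the Setdb1 AKO libraries, against 1909 and 1719 in the control libraries. The groups lay far apart, and the lower Setdb1 AKO library was still 16.3 times the higher control library. The means were 31833 ± 1028 in Setdb1 AKO and 1814 ± 134 in control BAT (SD, n = 2 each), a ratio of 17.6. On the scale of log2(normalised count + 1), on which all BAT and siRNA differences below are given, the difference was 4.13. It was 4.06 to 4.21 when any single library was left out. These values are the ones for which the gene was chosen. In raw reads the contrast was 31642 and 30149 in Setdb1 AKO against 2081 and 1694 in control BAT.

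**Figure D1:**
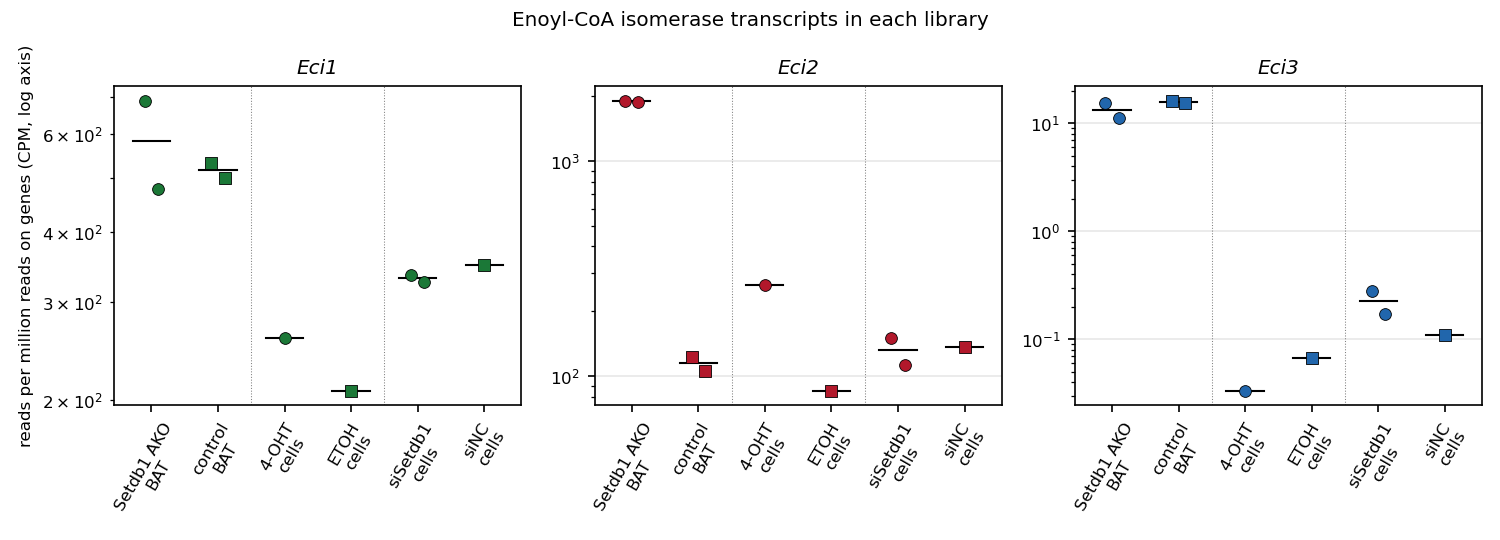
Reads on each gene scaled to a common library total (CPM, log axis, a separate range for each gene) of Eci1, Eci2 and Eci3 in each of the 9 libraries, with circles for Setdb1 AKO, 4-OHT and siSetdb1 libraries, squares for their controls and a bar at each group mean. Eci2 lies at 1909 and 1878 CPM in Setdb1 AKO BAT, against 123 and 106 CPM in control BAT, whereas Eci3 is seen in BAT and stays at or under 0.282 CPM in cells.

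Eci1, the mitochondrial isomerase, had 11766 and 7918 normalised counts in Setdb1 AKO BAT, against 8268 and 8120 in control BAT. One Setdb1 AKO library lay above and the other below both control libraries, so the groups overlapped. The means were 9842 ± 2720 in Setdb1 AKO and 8194 ± 105 in control BAT (SD, n = 2 each), a log2 difference of 0.24. Leaving out Setdb1 AKO 1 gave -0.05 and leaving out Setdb1 AKO 2 gave 0.52, so the sign rested on 1 library.

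Eci3, the neighbour and closest relative of Eci2, had 263 and 187 normalised counts in Setdb1 AKO BAT, against 253 and 251 in control BAT. These groups overlapped as well. The means were 225 ± 54.2 in Setdb1 AKO and 252 ± 1.81 in control BAT (SD, n = 2 each), a log2 difference of -0.18. With Setdb1 AKO 1 left out it was -0.43, and with Setdb1 AKO 2 left out 0.06. Eci3 held 256 and 181 reads in Setdb1 AKO BAT while Eci2 held 31642 and 30149, so the higher Eci2 reads did not come with more reads counted for Eci3.

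Of 14466 genes tested in BAT, 26 had a larger log2 difference than Eci2, and 0 of those averaged at least 1000 normalised counts in control BAT. Among 2721 genes that reached that level in control, 1 had an absolute difference above that of Eci2, namely Rpl29. This ribosomal protein gene was lower in Setdb1 AKO and was named after its value was seen. Eci2 was chosen for its BAT difference, so its rank by that difference follows from the choice and is a description. The level of 1000 was set with earlier results of these data known and lies below the control mean of Eci2 itself, 1814. By CPM per kb of the gene length in the deposited tables, Eci2 ranked 157 and 132 in the Setdb1 AKO libraries, against 2082 and 2333 in the control libraries, among 19609 to 20243 genes with a read. Eci1 ranked 72 and 92 in Setdb1 AKO BAT, against 85 and 98 in control BAT. In bulk tissue, fewer cells of a type and less RNA per cell cannot be told apart. Macrophage markers summed to 162 to 214 CPM in Setdb1 AKO and 149 to 238 in control BAT (6 of 6 read). Endothelial markers summed to 667 to 825 CPM in Setdb1 AKO and 691 to 758 in control BAT (5 of 5 read). Fibroblast and preadipocyte markers summed to 315 to 426 CPM in Setdb1 AKO and 274 to 325 in control BAT (7 of 7 read), with a median log2 difference of 0.28. Of these 7, Pi16, a marker of progenitors in adipose tissue, was called higher, where 1.00% of all BAT genes were (log2 difference 2.87; limma, adjusted p = 0.0327). That call was lost when Setdb1 AKO 2 (0.0888), control 1 (0.194) or control 2 (0.279) was omitted, and when no filter was used (0.256; limma, adjusted p). Skeletal muscle markers summed to 5.98 to 12.5 CPM in Setdb1 AKO and 5.37 to 35.4 in control BAT (8 of 8 read), and erythroid markers to 781 to 794 CPM in Setdb1 AKO and 529 to 588 CPM in control BAT (5 of 5 read). The erythroid sums did not overlap between the groups, and the sums of the other 4 types did. However, 0 of the 5 erythroid markers were called (limma, adjusted p below 0.05). The median log2 difference of the erythroid markers was 0.58. How often values of 2 against 2 libraries lie apart over all genes was not counted, and a shift in erythroid cells was not tested. The part of these marker values in the Eci2 values was not tested.

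In the cells with inducible Cre, Eci2 was again higher. It had 7991 counts in 4-OHT cells, against 2548 in ETOH cells, a log2 ratio of 1.70 after TMM scaling and a CPM ratio of 3.11 (exact 95% counting interval 2.97 to 3.25). The interval covers counting error only, and with 1 library per group no test of the treatment is possible. Of 13969 genes with at least 50 counts in 1 of these libraries, 45 had a larger ratio. Among 5382 genes with at least 1000 ETOH counts, 4 did: Elovl3, an elongase of fatty acids, Mbd1, a methyl-CpG binding protein, Resf1, a retroelement silencing factor, and Ermp1, an endoplasmic reticulum metallopeptidase. These 4 were named after their values were seen.

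Eci1 had 7801 counts in 4-OHT cells, against 6207 in ETOH cells, a log2 ratio of 0.38 and a CPM ratio of 1.25 (exact 95% counting interval 1.20 to 1.29). Eci3 had 1 read in 4-OHT cells and 2 reads in ETOH cells, which is under the limit of 3 reads that a count of 0 allows, so it was not detectable at this depth. Summed brown adipocyte markers were also higher with 4-OHT, as given above, with a median log2 ratio of 0.35 over the 9 markers. Macrophage markers summed to 1851 CPM in 4-OHT cells against 3341 CPM in ETOH cells (6 of 6 read), and fibroblast and preadipocyte markers to 8587 CPM in 4-OHT cells against 9301 CPM in ETOH cells (7 of 7 read). The part of these shifts in the isomerase values was not tested. The log2 ratios were 0.38 for Eci1 and 1.70 for Eci2, beside that marker median of 0.35, and the differences between these values were not tested.

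**Figure D2:**
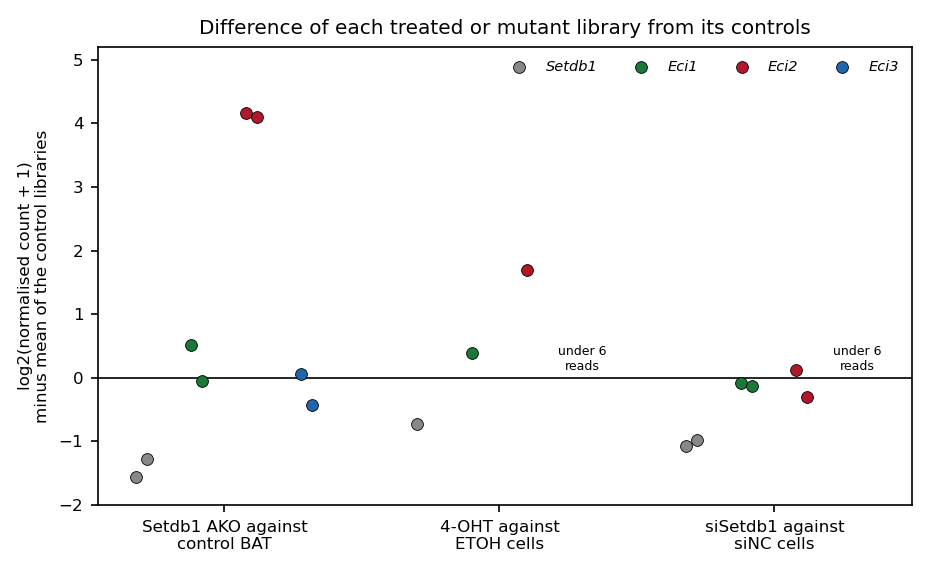
Difference of each Setdb1 AKO, 4-OHT or siSetdb1 library from the mean of its own controls, in log2(normalised count + 1), for Setdb1 and the 3 isomerases, with 1 point per library. Eci2 lies at 4.17 and 4.10 in BAT, at 1.70 with 4-OHT and at 0.12 and -0.30 with siSetdb1, and Eci3 is left out of the cells, where it had under 6 reads in each library.

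After siRNA, Eci2 lay close to its control level. It had 2698 and 2021 normalised counts in siSetdb1 cells, against 2482 in siNC cells. The siNC value lay between both siSetdb1 values, and the log2 difference was -0.09 (SE 0.15, 95% interval -0.42 to 0.25; limma, Benjamini-Hochberg adjusted p = 0.959). The interval leaves room for a change of up to 0.42 downward or 0.25 upward on the log2 scale, and the Eci2 differences of BAT and of 4-OHT cells lie outside it. No test of the difference between the experiments was run, since they differ in tissue, in agent and in replicates. Macrophage markers summed to 20.8 to 23.6 CPM in siSetdb1 cells, against 45.0 CPM in siNC cells (6 of 6 read, median log2 difference -0.84). Fibroblast and preadipocyte markers summed to 1757 to 2134 CPM in siSetdb1 cells, against 2190 CPM in siNC cells (6 of 7 read, Dpp4 at 0, median log2 difference -0.30). Both sums were lower in both siSetdb1 libraries, and their part in the isomerase values was not tested.

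Eci1 had 6025 and 5831 normalised counts in siSetdb1 cells, against 6378 in siNC cells. Both siSetdb1 values were below siNC, and the log2 difference was -0.11 (SE 0.10, 95% interval -0.33 to 0.12; limma, Benjamini-Hochberg adjusted p = 0.952). Over the alternative settings the adjusted p (limma, edgeR or DESeq2) ran from 0.744 to 1.00 for Eci1 and from 0.923 to 1.00 for Eci2. Eci3 had 5 and 3 reads in siSetdb1 cells and 2 reads in siNC cells, too few for a test or a fold. Setdb1 reads were at 49.1% of siNC, between the 37.4% of Setdb1 AKO BAT and the 60.1% of 4-OHT cells relative to their controls. They are summed over the whole gene and not over the floxed part alone. They therefore do not rank how much intact Setdb1 was left, and their relation to Eci2 was not tested.

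Levels of the 3 transcripts were compared with one another only per length. The gene length in the deposited tables is 5540 bases for Eci2, the exon union of its 14 GENCODE M21 transcripts, but 1091 bases for Eci1, whose 7 transcripts have an exon union of 2127 bases. These lengths are therefore unlike, and the order of Eci1 and Eci2 depends on which is used. Per kb of the deposited length, Eci1 ranked above Eci2 in all 9 libraries. Eci1 made up 64.0% and 55.8% of the summed CPM per kb in Setdb1 AKO BAT, against 93.5% and 93.9% in control BAT. Eci2 made up 34.9% and 43.2% in Setdb1 AKO BAT, against 4.25% and 3.91% in control BAT. In 4-OHT cells Eci2 made up 16.8%, against 7.48% in ETOH cells, and in siSetdb1 cells 8.10% and 6.39%, against 7.12% in siNC cells. Eci3 was the rarest in all 9 libraries, with 1.10% and 1.01% in Setdb1 AKO BAT, 2.20% and 2.23% in control BAT and at most 0.0594% in cells.

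The order of Eci1 and Eci2 in Setdb1 AKO BAT depended on the length used. Per kb of the deposited length, the ratio of Eci2 to Eci1 was 0.545 and 0.774 in Setdb1 AKO BAT, against 0.0455 and 0.0417 in control BAT. Per kb of a single protein-coding transcript, Eci2-201 of 1746 bases and Eci1-201 of 1086 bases, it was 1.72 and 2.44 in Setdb1 AKO BAT, against 0.144 and 0.132 in control BAT. Per kb of the exon union of each gene, it was 1.06 and 1.51 in Setdb1 AKO BAT, against 0.0886 and 0.0813 in control BAT. Eci1 was thus above Eci2 in Setdb1 AKO BAT under the deposited length and below it under the other lengths, while Eci1 was above Eci2 in control BAT under all 3. The ratio of Eci2 to Eci1 was higher in Setdb1 AKO than in control BAT under all 3 lengths. The summed level of the 3 isomerases in CPM per kb of deposited length was 988 and 785 in Setdb1 AKO BAT, against 521 and 489 in control BAT. Per kb of a single transcript it was 1740 and 1524 in Setdb1 AKO BAT, against 572 and 533 in control BAT, and per kb of exon union 679.8 and 572 in Setdb1 AKO BAT, against 284 and 265 in control BAT.

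**Figure D3:**
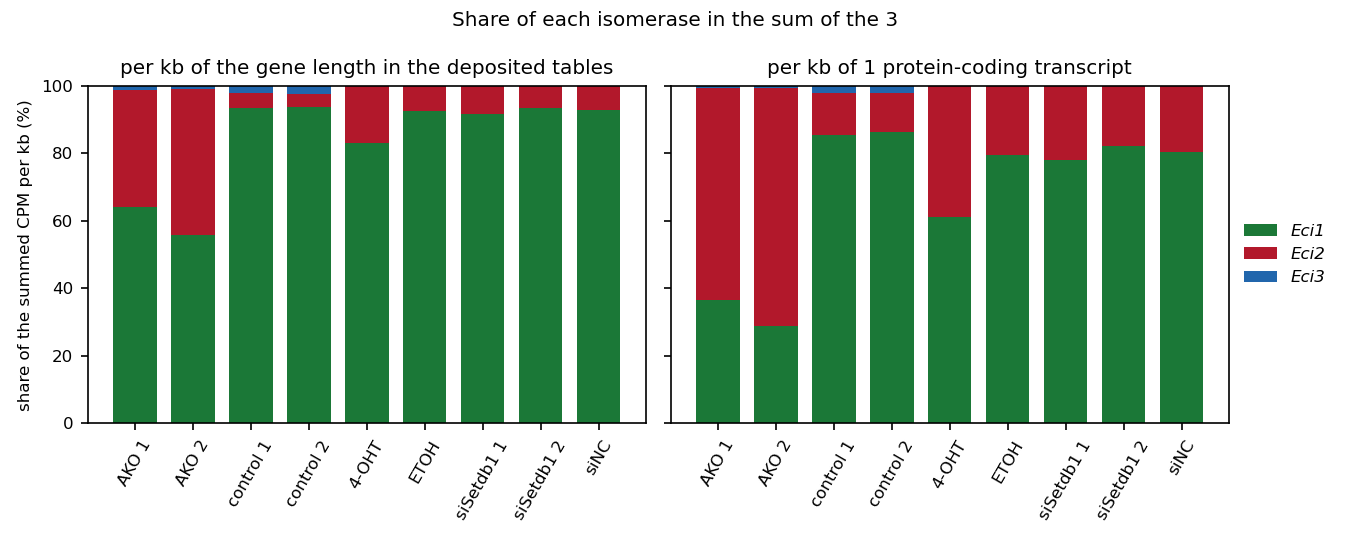
Share of Eci1, Eci2 and Eci3 in their summed CPM per kb (percent) in each of the 9 libraries, per kb of the gene length in the deposited tables on the left and of a single protein-coding transcript on the right. The Eci2 share in Setdb1 AKO BAT is 34.9% and 43.2% on the left and 62.8% and 70.6% on the right, against 4.25% and 3.91% and then 12.3% and 11.4% in control BAT.

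Between experiments, CPM can be set side by side only as a description, since the tables were normalised separately. The order of Eci2 by CPM was Setdb1 AKO BAT (1909 and 1878), 4-OHT cells (265), siSetdb1 cells (150 and 113), siNC cells (136), control BAT (123 and 106) and ETOH cells (85.2). The siNC value lies between the siSetdb1 values, which also bracket one control BAT library, so those 3 groups do not separate. Eci1 by CPM was 690 and 478 in Setdb1 AKO BAT, 532 and 501 in control BAT, 335 and 325 in siSetdb1 cells, 350 in siNC cells, 259 in 4-OHT cells and 208 in ETOH cells. Eci3 was read at 15.4 and 11.3 CPM in Setdb1 AKO BAT and at 16.3 and 15.5 CPM in control BAT, and at 0.0331 to 0.282 CPM in all cell libraries. Which cells of the tissue carry the Eci3 reads cannot be told from bulk libraries.

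The chromosomal surroundings of Eci2 and Eci3 were examined for genes that moved with Eci2. Within 250 kb of this locus lie 11 other annotated genes, of which 4 reached 10 normalised counts in any library and 3 were tested in BAT. None of the 3 passed the test, where 1.00% of all 14466 BAT genes were called higher (145 genes) and 0.677% lower (98 genes; limma, adjusted p below 0.05). By limma, 2564 BAT genes had an unadjusted p below 0.05, and of the 3 neighbours Gm16984 did so. Without one library the counts of genes called higher and lower were 98 and 59 (Setdb1 AKO 1), 52 and 40 (Setdb1 AKO 2), 22 and 2 (control 1), and 22 and 0 (control 2).

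Gm16984, antisense to Eci2 and overlapping its exons by 189 bases, had 82 and 62 reads in Setdb1 AKO BAT, against 24 and 6 in control BAT. Its log2 difference was 2.54 (SE 0.58; limma, Benjamini-Hochberg adjusted p = 0.0868). It passed with DESeq2 (adjusted p = 0.00654), and it passed with limma when replicate numbers were entered as a block (adjusted p = 0.0403), while over all alternatives the adjusted p ran from 0.00654 to 0.306. It had 46 reads in 4-OHT cells against 44 in ETOH cells, and 5 and 5 reads in siSetdb1 cells against 12 in siNC cells (log2 difference -1.08; limma, adjusted p = 0.950). Since the counting is not stated to use strand, reads from Eci2 and from Gm16984 cannot be told apart over the shared bases. Prpf4b, a kinase of the splicing machinery, had 1541 and 1422 normalised counts in Setdb1 AKO BAT, against 1593 and 1686 in control BAT (log2 difference -0.15; limma, adjusted p = 0.645). Gm36839, a long noncoding RNA, had 6 and 11 reads in Setdb1 AKO BAT, against 22 and 2 in control BAT (log2 difference 0.23; limma, adjusted p = 0.931), and Fam217a had 3 and 4 reads in Setdb1 AKO BAT, against 5 and 5 in control BAT. Eci1 has 22 other genes within 250 kb, of which 17 were tested in BAT, with log2 differences of -1.31 to 1.92 and a median of -0.12. By limma, 0 of the 17 were called, where 1.00% of all BAT genes were called higher and 0.677% lower. Of the 17, 6 had an unadjusted p below 0.05 (limma), where 17.7% of all BAT genes did.

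**Figure D4:**
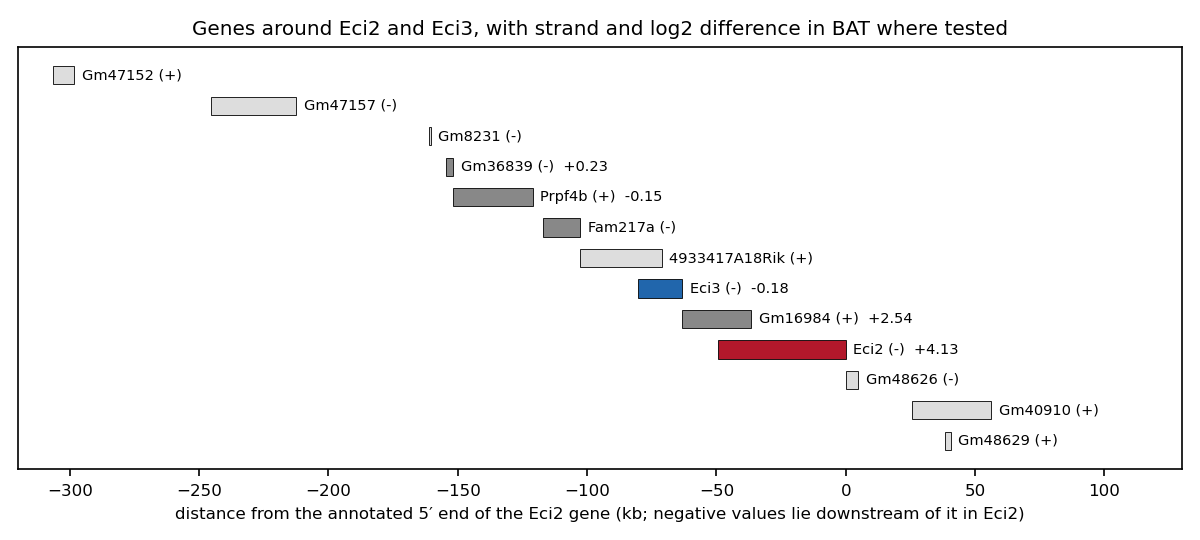
Genes within 250 kb of Eci2 and Eci3 by distance from the annotated 5′ end of the Eci2 gene (kb), with strand and, where tested, the log2 difference of Setdb1 AKO from control BAT. Red is Eci2, blue is Eci3, dark grey marks genes with at least 10 normalised counts in 1 library and light grey the rest. Eci2 is at 4.13 while its neighbour Eci3 is at -0.18 and Prpf4b at -0.15.

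The other genes listed around fatty acid oxidation showed shifts far smaller than that of Eci2 in BAT. The lists also hold acyl-CoA-binding proteins, relatives in protein fold and targets of PPAR alpha, not all of them enzymes of this pathway. Of 69 listed genes besides the isomerases, 66 were measured in BAT, 2 rose and 0 fell, against 1.00% of all BAT genes called higher and 0.677% lower (limma, adjusted p below 0.05). Their median log2 difference was 0.22, 49 of 66 were positive, and the median over all 14466 genes was 0.01. By limma 14 of the 66 had an unadjusted p below 0.05, where 17.7% of all BAT genes did (2564 genes). Of the 66, edgeR called 2 higher and 0 lower (148 and 102 over all genes), and DESeq2 called 4 higher and 2 lower (364 and 287 over all genes). With limma, 0 were called higher when control 1, or control 2, was left out. In 4-OHT cells 61 of the 69 were measured, with a median log2 ratio of 0.34 against 0.01 over all 13969 genes. Of these, 56 were positive, 1 was at least 2-fold higher (1.28% of all genes were) and 0 were at least 2-fold lower (1.65% of all genes were). In siRNA cells 64 were measured, with a median of -0.05 against 0.00 over all genes. None was called, where 0.0328% of all 15224 genes were called higher (5 genes) and 0.00657% lower (1 gene; limma), and none was called by edgeR or DESeq2. Of these 64, 4 had an unadjusted p below 0.05 with limma, where 5.06% of all siRNA genes did (770 genes).

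The list of auxiliary enzymes of unsaturated fatty acids held 4 genes besides the isomerases. Among them, Pecr encodes an enoyl-CoA reductase, and a role of it in the oxidation of unsaturated fatty acids is not shown here. The median log2 difference of the 4 listed genes in BAT was 0.30, with 0 of 4 called and 1 at an unadjusted p below 0.05 (limma). Decr1, the mitochondrial dienoyl-CoA reductase, had 12078 and 9381 normalised counts in Setdb1 AKO BAT, against 7407 and 7392 in control BAT (0.52; limma, adjusted p = 0.204). Ech1, which isomerises dienoyl-CoA, had 19639 and 12759 in Setdb1 AKO BAT, against 16401 and 17848 in control BAT (-0.11; limma, adjusted p = 0.857). Decr2, the peroxisomal dienoyl-CoA reductase, and Pecr, a peroxisomal enoyl-CoA reductase, had log2 differences of 0.14 and 0.45. With 4-OHT the log2 ratios were 0.45 for Decr1, 0.40 for Ech1, -0.02 for Decr2 and 0.42 for Pecr, and the median of 0.41 lies close to the 0.38 of Eci1.

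The core of mitochondrial beta-oxidation had 21 measured genes with 0 called in BAT, 3 at an unadjusted p below 0.05 (limma) and a median log2 difference of 0.22. Acaa2, the mitochondrial thiolase, was at 0.30 and Hadhb, a subunit of the trifunctional protein, at 0.28 (limma, adjusted p = 0.588 and 0.559). In 4-OHT cells 20 of 21 were positive, with a median of 0.34, and in siRNA cells 6 of 21, with a median of -0.05. The crotonase fold family, the superfamily of the isomerase domain, had 11 measured genes in BAT besides Eci1, Eci2 and Eci3, with 0 called and 1 at an unadjusted p below 0.05 (limma), a median of -0.11 and 4 positive. Hadha, the other trifunctional subunit and a member of that family, was at 0.25. The acyl-CoA-binding proteins, which share the other domain of Eci2, had 5 measured genes in BAT, with 0 called and 2 at an unadjusted p below 0.05 (limma), and a median of 0.26. Among them Dbi, the acyl-CoA-binding protein itself, was at 0.26 and Acbd4 at 0.55 (limma, adjusted p = 0.523 and 0.169).

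Peroxisomal beta-oxidation, the other setting of Eci2, had 18 measured genes in BAT, 15 positive, with a median log2 difference of 0.32. By limma, 2 of the 18 were called higher, 0 were called lower and 6 had an unadjusted p below 0.05. Over all BAT genes, 1.00% were called higher, 0.677% were called lower and 17.7% had an unadjusted p below 0.05. Acaa1b, a peroxisomal thiolase, had 1757 and 1931 normalised counts in Setdb1 AKO BAT, against 557 and 473 in control BAT. It rose by a log2 difference of 1.84 (SE 0.16; limma, Benjamini-Hochberg adjusted p = 0.00337). Leaving out control 1 (0.0827) or control 2 (0.0991), or using every gene with no filter (0.121), ended the call (limma, adjusted p in each case). Acaa1b shares 45.7% of its 31-mers with its paralog Acaa1a, and how many of its longer reads fit both genes was not counted. Abcd2, a peroxisomal importer of fatty acyl-CoA, had 1142 and 1360 normalised counts in Setdb1 AKO BAT, against 575 and 440 in control BAT. It rose by a log2 difference of 1.31 (SE 0.19; limma, Benjamini-Hochberg adjusted p = 0.0253). That call was lost without Setdb1 AKO 2 (0.0794), control 1 (0.162) or control 2 (0.247) and with no filter (0.234; limma, adjusted p). In 4-OHT cells the log2 ratios were 1.16 for Acaa1b and 0.66 for Abcd2, and in siRNA cells the log2 differences were 0.45 and 0.27 (limma, adjusted p = 0.935 for Acaa1b).

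Targets of PPAR alpha, the nuclear receptor of fatty acid oxidation, had 18 measured genes in BAT, 13 positive, with a median log2 difference of 0.17. By limma, 1 was called higher, Acaa1b, which is also a peroxisomal gene, and 4 had an unadjusted p below 0.05. Over all BAT genes, 1.00% were called higher and 17.7% had an unadjusted p below 0.05. Pdk4, the kinase that restrains glucose oxidation, was at 0.12 and Plin2, a lipid droplet protein, at 0.09 (limma, adjusted p = 0.858 and 0.871). Larger differences were seen for Ucp3, at 1.15, and Cpt1b, at -0.89, and neither was called (limma, adjusted p = 0.149 and 0.0912). Ucp3 and Cpt1b were named after their values were seen. In 4-OHT cells 12 of 14 measured targets were positive, with a median of 0.37. The lists overlap in several genes, so they are not separate counts.

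**Figure D5:**
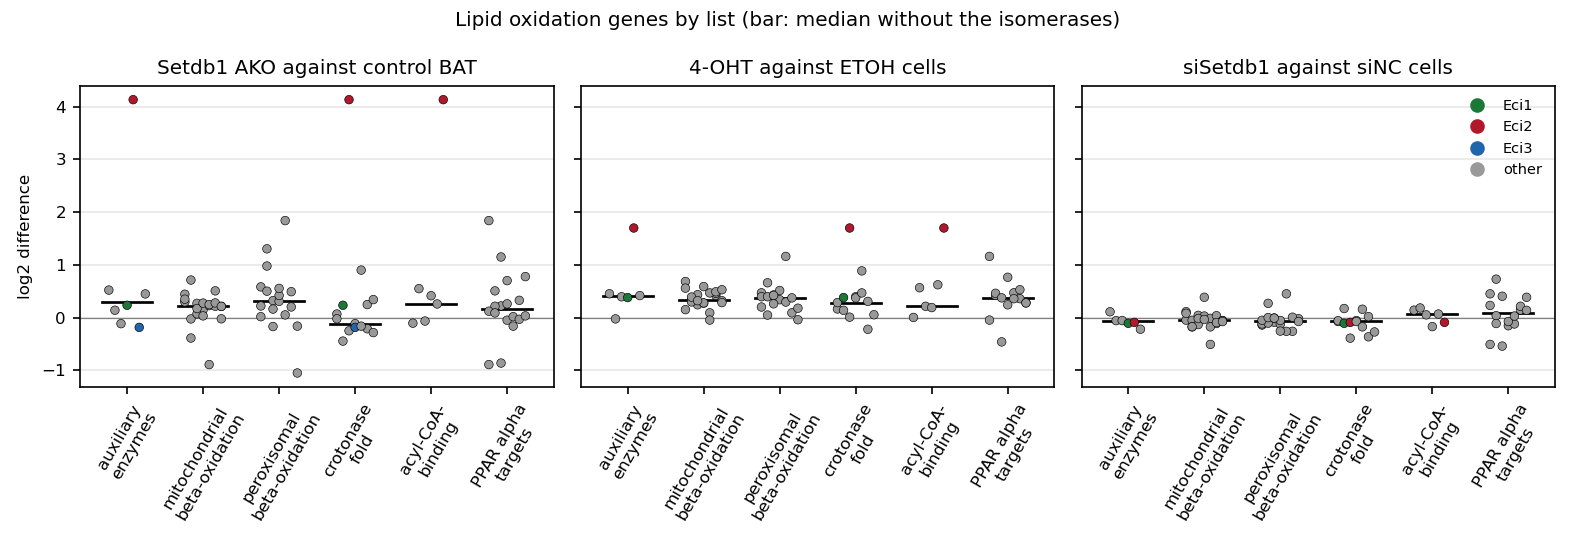
Log2 difference of each gene on the lists of oxidation and related genes in the 3 comparisons, with 1 point per gene. The isomerases are in colour, and a bar marks the median of the other genes of the list. In BAT Eci2 lies at 4.13 above list medians of -0.11 to 0.32, and in siRNA cells it lies at -0.09 beside list medians of -0.07 to 0.09.

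The 6 genes whose pattern lay closest to Eci2 were found by Euclidean distance over the 9 libraries, each set against its own controls in log2(normalised count + 1), among 12722 protein-coding genes. The median distance of all genes was 6.13. Bmyc, a relative of Myc, lay at 1.33, with 281 and 348 normalised counts in Setdb1 AKO BAT, against 32.1 and 25.4 in control BAT. Mbd1, at 1.54, had 15729 and 16285 normalised counts in Setdb1 AKO BAT, against 1831 and 1629 in control BAT. Mlf1, a myeloid leukaemia factor gene, lay at 1.62, with 468 and 408 in Setdb1 AKO BAT, against 11.9 and 12.2 in control BAT. Of the other 3, 1700018G05Rik lay at 1.55, Gm17655 at 1.58 and Adprhl1 at 1.61. In 4-OHT cells the log2 ratios were 1.51 for Bmyc, 2.39 for Mbd1 and 2.60 for Mlf1, against 1.70 for Eci2, and in siRNA cells the log2 differences were -0.60, 0.06 and -0.19, against -0.09. The distance includes the BAT libraries by which Eci2 was chosen, and 1700018G05Rik, Gm17655 and Adprhl1 had few reads in at least 1 group. None of the 6 is on the lists of oxidation and related genes.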

How the data were processed

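RNA was sequenced from 9 libraries as paired 150-base reads. The submitters' processing notes name featureCounts 2.0.3, STAR 2.7.10a, DESeq2 1.36.0 and Trimmomatic 0.39 with build GRCm38. The strand setting, the annotation release and multi-mapped reads are not given in the sources used here. The deposited BAT and siRNA tables hold a signal, the count scaled by the authors per library. The deposited 4-OHT table holds the raw count, the scaled count and an FPKM. The authors' log2 fold change and p-value columns, per the file headers, were not used. Dividing each scaled column by its step gave whole reads for 100% of values (within 0.05 reads). The siRNA tables were joined through the shared siNC library, identical in 19381 of 19381 genes (link factor 1.0024). There, 1 residual degree of freedom was left and the lone siNC library was assumed to vary like the siSetdb1 libraries.

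Genes with at least 10 normalised counts in 2 BAT libraries, or in 1 siRNA library, were fitted with limma 3.58.1 (trend) on log2(normalised count + 1) and called at a Benjamini-Hochberg adjusted p below 0.05, and fold changes on this scale understate those of low genes. In 4-OHT cells, log2 ratios of TMM-scaled CPM (edgeR 4.0.16, prior count 2) were described. The count tests of edgeR and of DESeq2 1.42.0 on recovered reads were alternatives. Scripts were tested on simulated data. The isomerases, the lists and the rules were chosen with earlier results of these data known. Named genes were the isomerases, Setdb1, neighbours with at least 10 normalised counts and the 6 genes most like Eci2. From the lists, all called genes or else the 2 most abundant were named, and all 4 of the auxiliary enzyme list. Pdk4, Plin2, Ucp3, Cpt1b and Dio2 were named outside this rule. Labels do not say that replicate numbers pair mice, and BAT deviations of number 1 correlated at r = -0.015 over 14466 genes, so no block was used.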

Additional observations from a re-analysis of the deposited data

Results flagged for a closer look

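Some log2 values differed in sign between experiments, and in each case that difference was not tested. Eci1 was at -0.11 in siRNA cells (limma, 95% interval -0.33 to 0.12), where both siSetdb1 libraries lay below siNC. It was at 0.38 in 4-OHT cells. The antisense RNA Gm16984 was at 2.54 in BAT (SE 0.58) and at -1.08 in siRNA cells (SE 0.94), where it had few reads. In 4-OHT cells it had 46 reads against 44 with ETOH, under the minimum of 50 counts set for a 4-OHT ratio, so no ratio is given. Prpf4b was at -0.15 in BAT (SE 0.14), at 0.09 in siRNA cells (SE 0.12) and at 0.01 in 4-OHT cells. The 4-OHT values rest on 1 library per group, and the siRNA values on 1 siNC library.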

How the results depend on the processing

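The log2 difference of Eci2 in BAT was 4.13 and lay between 4.06 and 4.21 with any single library left out, and the other alternatives moved it by less than the spread between libraries. Eci1 ran from -0.05 to 0.52 and Eci3 from -0.43 to 0.06 with a library left out. In siRNA cells Eci2 was -0.30 without siSetdb1 1 and 0.12 without siSetdb1 2. In 4-OHT cells, library totals in place of TMM gave 1.64 for Eci2 and 0.32 for Eci1. The 145 genes called higher in BAT became 364 with DESeq2, 11 with no filter and 22 to 98 without 1 library, and the 98 called lower became 287, 0 and 0 to 59. The siRNA calls, 5 higher and 1 lower, became 8 and 3 with DESeq2, 14 and 5 with TMM scaling, 29 and 8 with edgeR, 22 and 7 with a filter of 50, and 0 and 0 with no filter. The 2 pathway genes called higher in BAT became 4 with DESeq2 (and 2 lower), 0 with no filter and 0 to 2 without 1 library. Gm36839 turned to -0.35 with DESeq2, -0.36 with edgeR and, with a library left out, ran from -1.17 (without control 2) to 0.62. The other lengths for the ratio of Eci2 to Eci1, and the alternatives for Acaa1b, Abcd2 and Pi16, were chosen after seeing the data. With replicate numbers as a block, limma called 181 higher and 118 lower, 3 pathway genes higher, and Gm16984 (adjusted p = 0.0403), and Eci2 stayed at 4.13. The cause of these moves was not tested. Depth limits Eci3 in cells, at 1 to 5 reads, and Gm16984.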
